A study of Mus musculus with 9 samples.

Results

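To describe the immediate early transcription factors of monocytes/macrophages in the poststroke brain, 10 genes were followed across 9 libraries of CD11c-Ly6G-CD11b+CD45high cells: Fos, Fosb, Jun, Junb, Egr1, Egr2, Egr3, Ier2, Nr4a1 and Atf3. They were chosen by name, with earlier results of these data known, as 10 of the 53801 mouse genes with a count value. All 10 had counts in the brain libraries. The cells were sorted from 9-week-old male C57BL/6J mice in 3 groups of 3 libraries. Stroke brain and stroke blood were collected on day 5 of dMCAO, in which the distal part of the left middle cerebral artery and the left common carotid artery were permanently closed, and sham blood came from sham-operated mice, for which no day is named in the sources used here. Each blood library was made from the cells of 1 mouse and each brain library from a pool of 5 mouse brains, and there was no sham brain group. The blood cells were taken through a Ficoll gradient, whereas the brain cells came from the ipsilesional hemisphere after heated enzymatic and mechanical dissociation and a Percoll step, so tissue of origin and dissociation cannot be told apart in any comparison with the brain.

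Immediate early genes are transcribed within minutes of a stimulus from factors already present in the cell, without new protein synthesis, and most of their transcripts are short-lived. FOS and JUN family proteins dimerize as AP-1, EGR proteins are zinc finger factors held in check by NAB corepressors, and NR4A proteins are orphan nuclear receptors. In macrophages these genes respond to pathogen products, cytokines and phagocytic cargo, and the same genes are known to be switched on by enzymatic dissociation of tissue.

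A classical feature of such genes is a promoter with sites for CREB and for serum response factor (SRF). Promoter sequences from RefSeq (GRCm38.p6, 250 bases before to 50 bases after a listed transcription start) covered 7 of the 10 genes. Egr1, Egr3 and Ier2 had no window, and sequence more than 250 bases upstream was not searched for any gene. The CRE half-site TGACG, which CREB family proteins bind, was found on either strand in 6 of these 7 genes, namely Atf3, Egr2, Fos, Fosb, Junb and Nr4a1, against 23.0% of the 27025 genes with a window. The site for EGR proteins, GCGTGGGCG or GCGGGGGCG, was found in Fosb and Nr4a1, against 3.93% of genes. The CArG box, the site of SRF, was found in Egr2 alone of these 7 genes, against 1.81% of genes. Its absence from a window says nothing of sequence outside that window. The full CRE TGACGTCA (2.03% of genes), the AP-1 site TGACTCA or TGAGTCA (5.95%) and the NR4A site AAAGGTCA (1.7%) were in none of the 7 windows. A full CRE also counts as a CRE half-site, and these matches are descriptions of the letters in a window, not of binding. The 130 bases before the start are printed 5′ to 3′ along the strand of the gene, for 5 genes of the FOS, JUN, NR4A and EGR families that carry these sites, with each match in capitals. They lie at chr12:85473760-85473889 (plus strand, Fos), chr7:19310046-19310175 (minus strand, Fosb), chr8:84978749-84978878 (minus strand, Junb), chr15:101266716-101266845 (plus strand, Nr4a1) and chr10:67537739-67537868 (plus strand, Egr2; of its 5 listed windows, this is the most upstream of those with both a CRE half-site and the CArG box).
Fos: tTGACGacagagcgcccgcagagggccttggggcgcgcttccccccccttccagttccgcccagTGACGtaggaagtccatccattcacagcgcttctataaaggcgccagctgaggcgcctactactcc
Fosb: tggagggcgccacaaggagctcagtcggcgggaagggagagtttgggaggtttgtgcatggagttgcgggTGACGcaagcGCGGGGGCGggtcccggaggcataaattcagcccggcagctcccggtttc
Junb: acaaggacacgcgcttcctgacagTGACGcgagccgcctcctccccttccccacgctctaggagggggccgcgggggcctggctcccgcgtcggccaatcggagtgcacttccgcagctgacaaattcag
Nr4a1: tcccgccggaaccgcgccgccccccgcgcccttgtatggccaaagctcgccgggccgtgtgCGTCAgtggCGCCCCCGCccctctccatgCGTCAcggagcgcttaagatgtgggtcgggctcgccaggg
Egr2: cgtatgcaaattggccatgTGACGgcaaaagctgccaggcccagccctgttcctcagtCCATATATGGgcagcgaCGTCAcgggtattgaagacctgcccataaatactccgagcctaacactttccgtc
In Fos the half-sites began 129 and 66 bases upstream of the start, and in Fosb the half-site at 60 bases was followed by the EGR site at 50 bases. In Nr4a1 the EGR site at 60 bases lay between half-sites at 69 and 40 bases, and in Egr2 the CArG box at 72 bases lay between half-sites at 111 and 55 bases.

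Total counts per library were between 18475118 and 22623578, and 3 counts, the floor of detection used here, corresponded to between 0.133 and 0.162 CPM (counts scaled to a library total of 1000000). The 10 monocyte/macrophage markers, among them Lyz2, Csf1r and Itgam, summed to between 90402 and 126205 CPM in sham blood, 99396 and 110303 CPM in stroke blood and 47777 and 53380 CPM in the brain, so these markers were present in all 3 groups. Markers of other cells also differed. The 10 microglial markers summed to at most 248 CPM in blood and to between 1393 and 4027 CPM in the brain, and all 10 were higher there by the test used below. The 6 erythroid markers summed to between 1221 and 34113 CPM in blood and to at most 14.5 CPM in the brain. The 7 dendritic cell markers, among them Itgax, the gene of the CD11c that the gate excludes, summed to between 748 and 1020 CPM in the brain and to between 99.9 and 348 CPM in blood. The 8 T and NK cell markers summed to between 366 and 607 CPM in the brain and to between 112 and 365 CPM in blood. Neutrophil markers were between 996 and 1602 CPM in the brain, between 248 and 646 CPM in stroke blood and between 508 and 2023 CPM in sham blood. Their brain sums were thus above those of stroke blood but overlapped those of sham blood. Of the 8 neuronal and glial markers, Syt1, Rbfox3 and Mog were at 0 in all brain libraries, whereas Gfap was at 0.0533, 0.398 and 1.11 CPM, Snap25 had 8 counts in brain replicate 3 alone and Aqp4 had 3 counts in brain replicate 2 alone. Mbp made up most of their sum in all groups, at between 124 and 191 CPM in the brain and between 164 and 321 CPM in blood. In bulk RNA of this kind, fewer cells of a type and less RNA per cell cannot be told apart, and the part of these other cells in the results below was not tested.

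The 10 genes together took between 1.08% and 1.16% of all counts in the brain libraries, between 0.227% and 0.282% in stroke blood and between 0.162% and 0.364% in sham blood. The share of the brain was thus above that of every blood library. The brain pools spread little, and sham blood spread more than stroke blood. Each brain library holds cells of 5 mice and each blood library of 1 mouse, so spreads of brain and blood are not comparable, here and below. The plot of the genes by library shows that the blood groups overlapped for most genes and that the brain libraries lay above them.

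**Figure D1:**
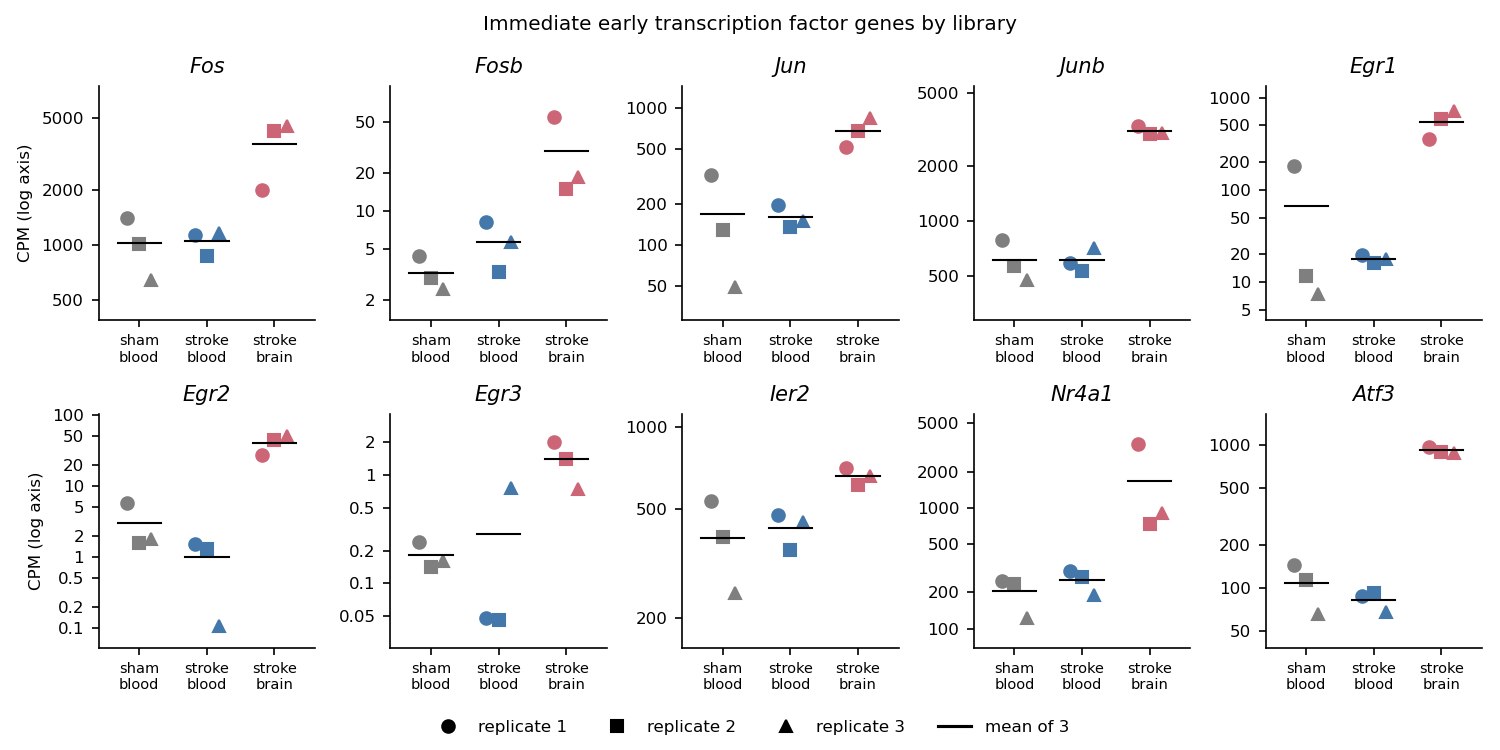
CPM of the 10 genes (log axes, a separate scale for each gene) in 3 sham blood, 3 stroke blood and 3 stroke brain libraries; symbols mark the replicate number and lines the mean of the 3 libraries. The brain libraries lie above all blood libraries for every gene but Egr3, brain replicate 1 stands apart for Nr4a1 and Fosb, and sham blood replicate 1 is the highest sham library throughout.

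Genes were tested with edgeR's quasi-likelihood test on the counts of the groups compared. Adjusted p is the Benjamini-Hochberg value over all genes tested. A gene was called a differentially expressed gene (DEG) where its adjusted p was under 0.05 and its level differed by more than 1 on the log2 scale. Between stroke brain and stroke blood, 8 of the 10 genes were upregulated DEGs and none was downregulated, against 13.1% upregulated and 7.86% downregulated among all 13189 genes tested. The 8 genes were Fos, Fosb, Jun, Junb, Egr1, Egr2, Nr4a1 and Atf3. For 9 of the 10 genes, all but Egr3, every brain library was above every stroke blood library, against 31.9% of all genes. Against sham blood, 7 of the 10 genes were upregulated DEGs (Fos, Fosb, Junb, Egr2, Egr3, Nr4a1 and Atf3), against 9.75% of 13020 genes, and none was downregulated, against 3.67%, and for all 10 genes every brain library was above every sham library, against 27.4% of genes. The count of 7 was 4 without sham replicate 2 or sham replicate 3 and 9 without sham replicate 1. The median log2 fold change of the 10 genes was 2.19 against stroke blood and 2.84 against sham blood, where the medians over all genes were 0.062 and 0.010. Both comparisons use the same brain libraries, so they are not independent of each other.

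**Figure D2:**
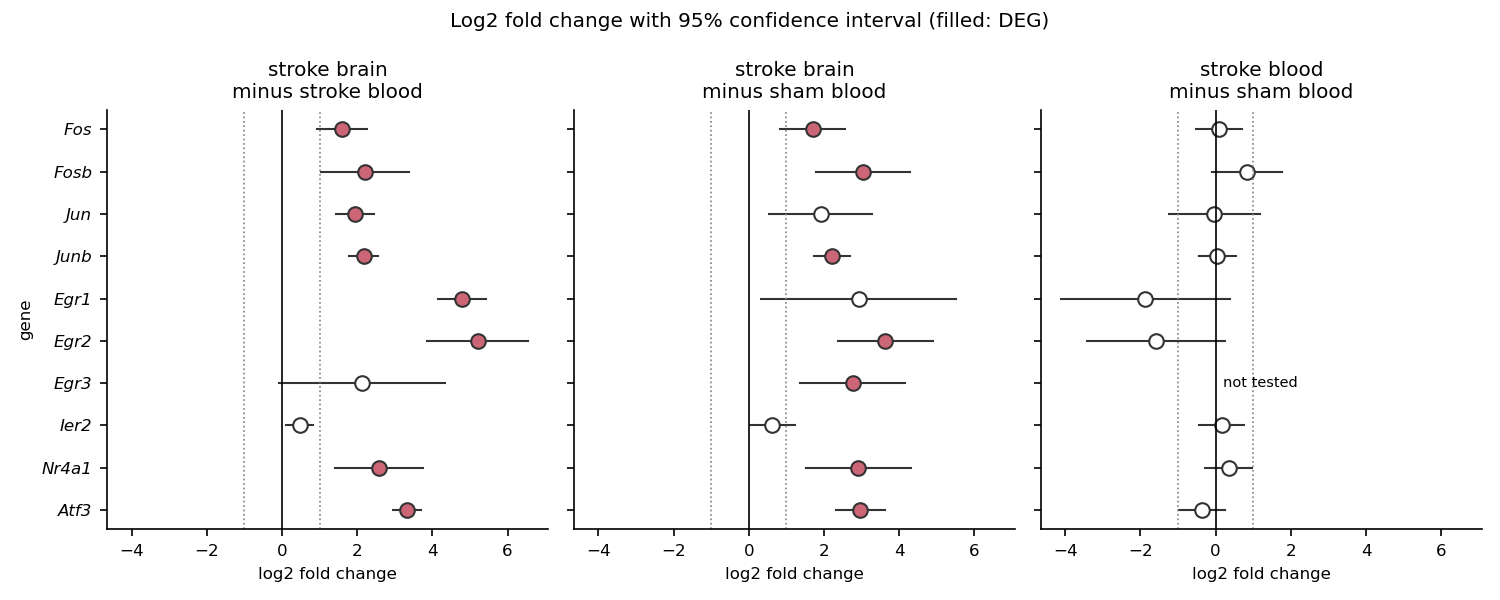
Log2 fold change (points) with its 95% confidence interval (lines) from edgeR for the 10 genes in the comparisons of stroke brain minus stroke blood, stroke brain minus sham blood and stroke blood minus sham blood; filled points are DEGs and dotted lines mark a log2 fold change of 1 in either direction. Egr1 and Egr2 had the highest values against stroke blood (4.79 and 5.20), and the intervals of Egr1 against sham blood and of both EGR genes between the blood groups are wide.

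Gene positions are those of GENCODE M21 on GRCm38. Fos (chr12:85473890-85477273, plus strand) encodes the founding partner of JUN proteins in AP-1. Its level was 2019, 4246 and 4521 CPM in brain replicates 1, 2 and 3, 1139, 871 and 1174 CPM in stroke blood and 1408, 1016 and 645 CPM in sham blood. The brain libraries did not overlap either blood group, although brain replicate 1 was less than a factor of 2 above the highest blood library. It was higher in the brain by 1.61 ± 0.29 (log2, SE, edgeR adjusted p = 0.00357) against stroke blood and by 1.70 ± 0.38 (adjusted p = 0.0191) against sham blood. The call against sham blood was lost without sham replicate 2 (adjusted p = 0.0662), sham replicate 3 (0.061), brain replicate 2 (0.0635) or brain replicate 3 (0.0644).

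Fosb (chr7:19302696-19310051, minus strand) encodes a paralog of FOS, and was far less abundant. It was at 55.2, 14.9 and 18.5 CPM in the brain, 8.20, 3.29 and 5.72 CPM in stroke blood and 4.43, 2.96 and 2.44 CPM in sham blood. Here brain replicate 1 was the highest library, and the groups again did not overlap. The brain level of Fosb was above stroke blood by 2.20 ± 0.52 on the log2 scale (edgeR adjusted p = 0.012) and above sham blood by 3.04 ± 0.54 (0.00877). Without brain replicate 1 the change against stroke blood was 1.40 (0.0216) and that against sham blood 2.24 (0.00762). The call against stroke blood was lost without stroke blood replicate 2 (0.0543) or 3 (0.057).

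Jun (chr4:95049034-95052222, minus strand) and Junb (chr8:84974484-84978718, minus strand) encode the JUN partners of AP-1. Jun was at 524, 685 and 840 CPM in the brain, 197, 134 and 148 CPM in stroke blood and 323, 128 and 48.8 CPM in sham blood. The sham libraries spread over a range that contained all of stroke blood, but no blood library reached the brain. Jun rose by 1.94 ± 0.22 on the log2 scale against stroke blood (edgeR adjusted p = 0.00032). Against sham blood its value was 1.91 ± 0.59 (adjusted p = 0.0587), which became 2.85 (0.00844) without sham replicate 1.

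Junb was at 3300, 3002 and 3013 CPM in the brain, 593, 534 and 715 CPM in stroke blood and 788, 566 and 478 CPM in sham blood. The brain pools differed little from each other and lay well above both blood groups. On the log2 scale the difference was 2.18 ± 0.17 (edgeR adjusted p = 4.36e-05) against stroke blood and 2.22 ± 0.21 (0.000768) against sham blood, and Junb was a DEG with any single library left out. Exons of Jun overlap Junos and exons of Junb overlap Prdx2, both on the opposite strand. Since the sources used here do not state whether counting was by strand, reads of these pairs cannot be told apart.

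Atf3 (chr1:191170296-191218039, minus strand) encodes a member of the ATF/CREB family that dimerizes with JUN proteins and is induced by many kinds of stress. Its level was 967, 902 and 888 CPM in the brain, 87.1, 92.3 and 67.8 CPM in stroke blood and 144, 114 and 65.5 CPM in sham blood. As for Junb, the brain pools were close together and apart from every blood library. Its log2 difference of 3.33 ± 0.17 (edgeR adjusted p = 4.85e-06) was the third highest of the 10 genes against stroke blood, and the change against sham blood was 2.97 ± 0.28 (0.000786). Both calls held with any single library left out.

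Nr4a1 (chr15:101254269-101274795, plus strand), also called Nur77, encodes the NR4A receptor that is known to be needed for Ly6C-low patrolling monocytes. It was at 3400, 735 and 917 CPM in the brain, 302, 267 and 191 CPM in stroke blood and 251, 237 and 124 CPM in sham blood. All brain libraries were above blood, but brain replicate 1 was far above the other brain pools. Nr4a1 rose by 2.58 ± 0.52 on the log2 scale (edgeR adjusted p = 0.00573) against stroke blood and 2.91 ± 0.60 (0.015) against sham blood. Without brain replicate 1 these values were 1.57 (0.000843) and 1.91 (0.01), and the call against sham blood was lost without sham replicate 2 (0.0523) or 3 (0.0611).

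Ier2 (chr8:84661331-84662852, minus strand) encodes a small nuclear protein without a known DNA-binding domain. It was at 706, 611 and 659 CPM in the brain, 476, 355 and 450 CPM in stroke blood and 534, 394 and 246 CPM in sham blood. The groups did not overlap, yet the difference was below the fold threshold for a DEG, at a log2 difference of 0.47 ± 0.16 (edgeR adjusted p = 0.0543) against stroke blood and 0.63 ± 0.26 (0.129) against sham blood. Ier2 thus had the smallest change of the 10 genes in both comparisons, in cells where Fos and Junb were higher by more than a factor of 3. Without sham replicate 1 the adjusted p against sham blood was 0.0289, at a log2 fold change of 0.93, still below the fold threshold.

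Among the 10 genes Egr1 and Egr2 had the highest log2 fold changes against stroke blood. Egr1 (chr18:34859823-34864984, plus strand), the EGR factor induced by most growth and differentiation signals in myeloid cells, was at 356, 583 and 710 CPM in the brain and at 19.7, 16.3 and 17.8 CPM in stroke blood. In sham blood it was at 179, 11.6 and 7.36 CPM. Stroke blood libraries were nearly equal, whereas sham replicate 1 was more than 10 times the other sham libraries. Egr1 was higher in the brain by 4.79 ± 0.28 on the log2 scale (edgeR adjusted p = 1.14e-05) against stroke blood and 2.92 ± 1.12 (0.107) against sham blood, the latter with a 95% confidence interval from 0.33 to 5.51. Without sham replicate 1 it was 5.75 (0.00065).

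Egr2 (chr10:67535475-67542188, plus strand), also known as Krox20 and a marker of some activated macrophages, was at 27.0, 44.7 and 50.9 CPM in the brain, 1.54, 1.30 and 0.108 CPM in stroke blood and 5.74, 1.55 and 1.79 CPM in sham blood. It was low in all blood libraries, and stroke blood replicate 3 held only 2 counts. Egr2 rose by 5.20 ± 0.60 on the log2 scale against stroke blood (edgeR adjusted p = 0.000339) and by 3.63 ± 0.55 against sham blood (0.00495), and both calls held with any single library left out.

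Egr3 (chr14:70077203-70082614, plus strand), known for its induction by antigen receptors in lymphocytes, was near the floor of detection. It had 38, 32 and 16 counts in the brain, 1, 1 and 14 counts in stroke blood and 5, 3 and 3 counts in sham blood, or at most 2.03 CPM. Stroke blood replicate 3 overlapped the brain (0.756 against 0.740 CPM in brain replicate 3), which left a log2 difference of 2.14 ± 0.98 (edgeR adjusted p = 0.129), and without that library it was 4.56 (0.0177). Against sham blood the change was 2.76 ± 0.60 (0.0181), and the call was lost without sham replicate 2 (0.0854), sham replicate 3 (0.0836) or brain replicate 2 (0.0583).

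Stroke blood and sham blood, both of circulating cells not dissociated from tissue, were compared with 3 libraries each and no day named for sham blood. In edgeR's test none of the 9 genes tested was a DEG in either direction, against 0.0079% of 12664 genes (1 gene) called higher in stroke blood. None of the 9 passed an unadjusted p of 0.05, against 12.5% of genes, and no member was called with DESeq2, in which Egr2 alone had an unadjusted p below 0.05 (0.0289, adjusted 0.289). Egr3 was removed by the filter on low counts. The median log2 fold change was 0.047, and the values of Fos (0.091, 95% confidence interval from -0.53 to 0.71), Junb (0.047, from -0.45 to 0.55) and Ier2 (0.16, from -0.44 to 0.77) were those nearest to 0 with intervals within a log2 of 1. Jun had a value of -0.033 with a wider interval, from -1.24 to 1.18. Nr4a1 had a value of 0.35 (edgeR adjusted p = 0.618), Atf3 of -0.35 (0.603) and Fosb of 0.84 (0.438). Egr2 was the only gene whose groups did not overlap in CPM, against 10.5% of all genes lower without overlap, but the closest libraries had 32 and 33 counts (1.54 and 1.55 CPM), and with CPM scaled by the TMM factors the groups overlapped (up to 1.63 in stroke blood, from 1.54 in sham blood). Its log2 fold change was -1.59 ± 0.81 (0.457). The value of Egr1 was -1.87 ± 1.00 (0.469, 95% confidence interval from -4.12 to 0.39), and it was 0.97 without sham replicate 1. Without that library the value of Jun was 0.90 and the median of the 9 genes was 0.46, and no gene became a DEG.

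Levels were compared between genes as CPM per kilobase of exon (union of annotated exons). In the brain the order of mean levels was Fos (1529 CPM per kb), Junb (1349), Nr4a1 (480), Ier2 (433), Atf3 (427), Jun (214), Egr1 (123), Egr2 (12.02), Fosb (4.73) and Egr3 (0.316). Neighbours whose libraries overlapped were Fos and Junb, Nr4a1 and Ier2, Ier2 and Atf3, and Egr2 and Fosb, so their order within the pair was not resolved. The place of Nr4a1 rests on brain replicate 1: without that library its mean was 235 CPM per kb, below Ier2 (417), Atf3 (415) and, by less than their spread, Jun (239). In stroke blood it was Fos (451), Ier2 (281), Junb (267), Nr4a1 (72.2), Jun (50.1), Atf3 (38.3), Egr1 (3.99), Fosb (0.919), Egr2 (0.289) and Egr3 (0.0643), with overlap between Ier2 and Junb, Nr4a1 and Jun, Jun and Atf3, and Egr2 and Egr3. The level of Ier2 was thus above that of Nr4a1 and Atf3 in stroke blood, but its libraries overlapped those of both in the brain. In sham blood Fos (435), Junb (265) and Ier2 (257) led with overlapping libraries, and the other neighbours overlapped as well, except Ier2 and Nr4a1 (58.1) and the lowest pair, Fosb (0.524) and Egr3 (0.0414).

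Within each family a single gene held most of the summed level per kilobase in all 3 groups, as the plot of family shares shows. Fos held between 96.4% and 99.4% of the FOS family (Fos, Fosb, Fosl1, Fosl2) in the brain and between 98.6% and 98.9% in blood. Junb held between 81.0% and 87.1% of the JUN family (Jun, Junb, Jund) in the brain and between 76.4% and 86.4% in sham blood, so these ranges overlapped. The share of Nr4a1 in its family was between 95.4% and 97.8% in the brain and between 99.0% and 99.4% in sham blood, without overlap, since Nr4a2 and Nr4a3 made up more of the sum in the brain. Egr1 held between 90.4% and 91.3% of the EGR family in the brain and between 74.5% and 95.8% in sham blood.

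**Figure D3:**
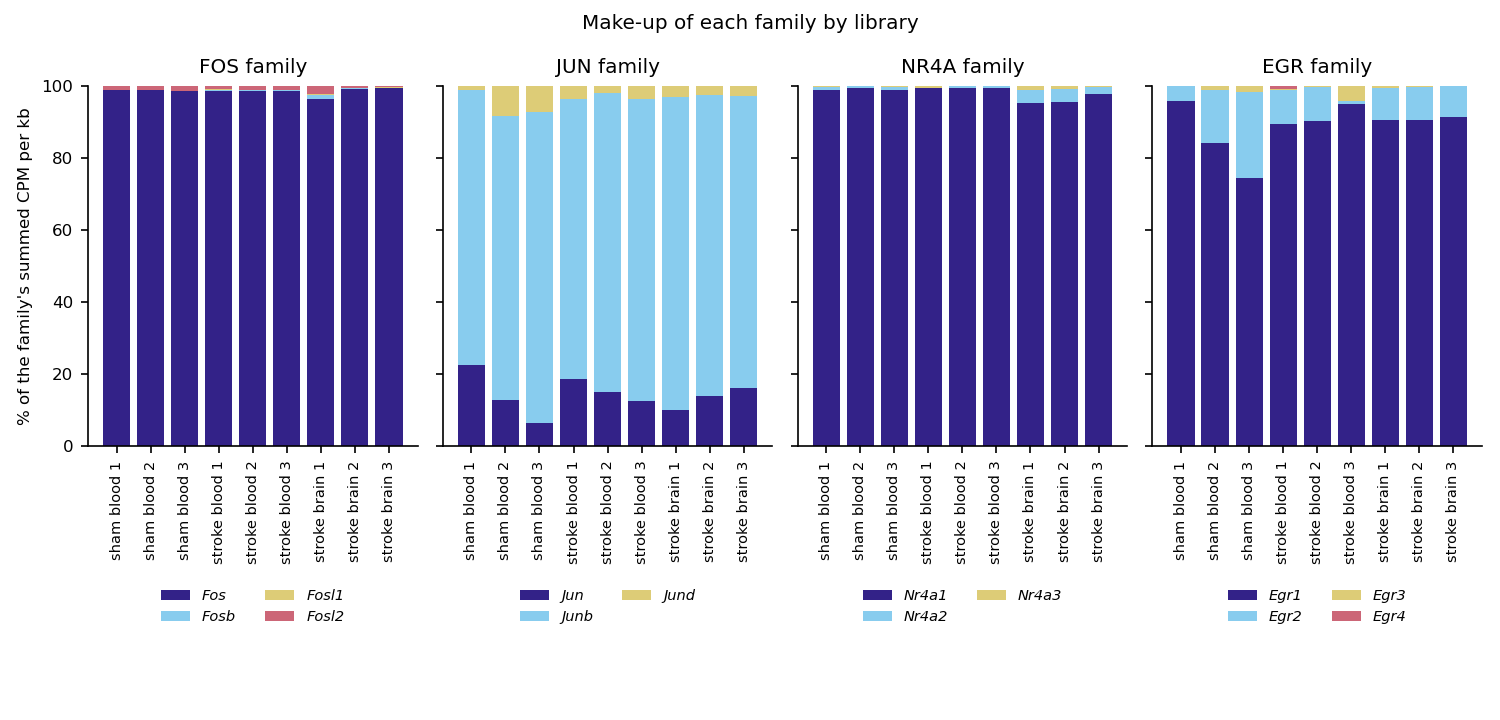
Stacked bars of the share of each gene in the summed CPM per kb of its family (FOS, JUN, NR4A and EGR), in percent from 0 to 100, for each of the 9 libraries. Fos, Junb, Nr4a1 and Egr1 make up most of every bar, with Nr4a1 between 95.4% and 97.8% in the brain.

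Brain replicate 1 was set against the mean of the other brain pools, since it stood apart for several genes. It was 4.12 times that mean for Nr4a1, 3.30 times for Fosb and 1.88 times for Egr3. For Fos it was 0.461 times, for Egr1 0.550 times, for Egr2 0.564 times and for Jun 0.687 times the mean, while Junb (1.10), Ier2 (1.11) and Atf3 (1.08) were close to it. Replicate 1 was therefore the highest brain library for 6 of the 10 genes and the lowest for the other 4, against 39.8% and 39.7% of genes with at least 1 CPM. At least 2 times the mean was reached by 2 of the 10 genes, against 7.68% of these genes, and at most 0.5 times by 1 gene, against 5.58%. The NR4A relatives shared the direction of Nr4a1, with Nr4a2 at 149, 34.5 and 19.3 CPM and Nr4a3 at 60.1, 9.19 and 5.97 CPM in brain replicates 1, 2 and 3. Replicate 1 had the lowest sum of microglial markers (1393 against 2146 and 4027 CPM) and the highest sum of dendritic cell markers (1020 against 769 and 748 CPM) of the brain libraries. Its sums were also lowest for monocyte/macrophage (47777 CPM), T and NK cell (366 CPM), platelet (38.3 CPM) and erythroid markers (4.16 CPM). They were highest for neuronal and glial (192 CPM) and endothelial markers (32.9 CPM), and between the other pools for neutrophil and B cell markers. Of the 14 heat shock and signalling transcripts known to rise on tissue dissociation, 9 were highest and none was lowest in this library. Hspa1b, uncertain for its near-identical copy Hspa1a, was at 8.70 times the mean of the other pools. The median ratio of the list was 1.28, and Hspa8 (1.11), Ccl4 (1.07) and Socs3 (0.925) were close to 1. This was not particular to that list. Of the lists described below, 12 of 18 other immediate early genes (median ratio 1.51) and 10 of 13 upstream factors and kinases (1.43) were also highest here. The part of these cells and transcripts in its pattern was not tested.

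Sham blood replicate 1 was the highest sham library for all 10 genes, against 34.6% of genes. It was 19.0 times the mean of the other sham libraries for Egr1, 3.65 times for Jun and 3.44 times for Egr2, and the median ratio over the 10 genes was 1.65, where the median over all genes was 0.968. At least 2 times was reached by these 3 genes, against 2.91% of genes. In the same library the erythroid markers summed to 1221 CPM against 34113 and 30389 CPM in the other sham libraries, and the platelet markers to 15.8 CPM against 406 and 606 CPM. Its sums were highest for monocyte/macrophage (126205 CPM) and dendritic cell markers (348 CPM), and lowest for T and NK cell (138 CPM), B cell (123 CPM) and neutrophil markers (508 CPM). Of 14 heat shock and signalling transcripts known to rise on tissue dissociation, 12 were highest in this library as well. So were 16 of the 18 other immediate early genes described below, and 6 of the 13 upstream factors and kinases. The part of these differences in the sham values was not tested. With that library left out, 9 of the 10 genes were DEGs between brain and sham blood, all but Ier2, and the median log2 fold change was 3.08.

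**Figure D4:**
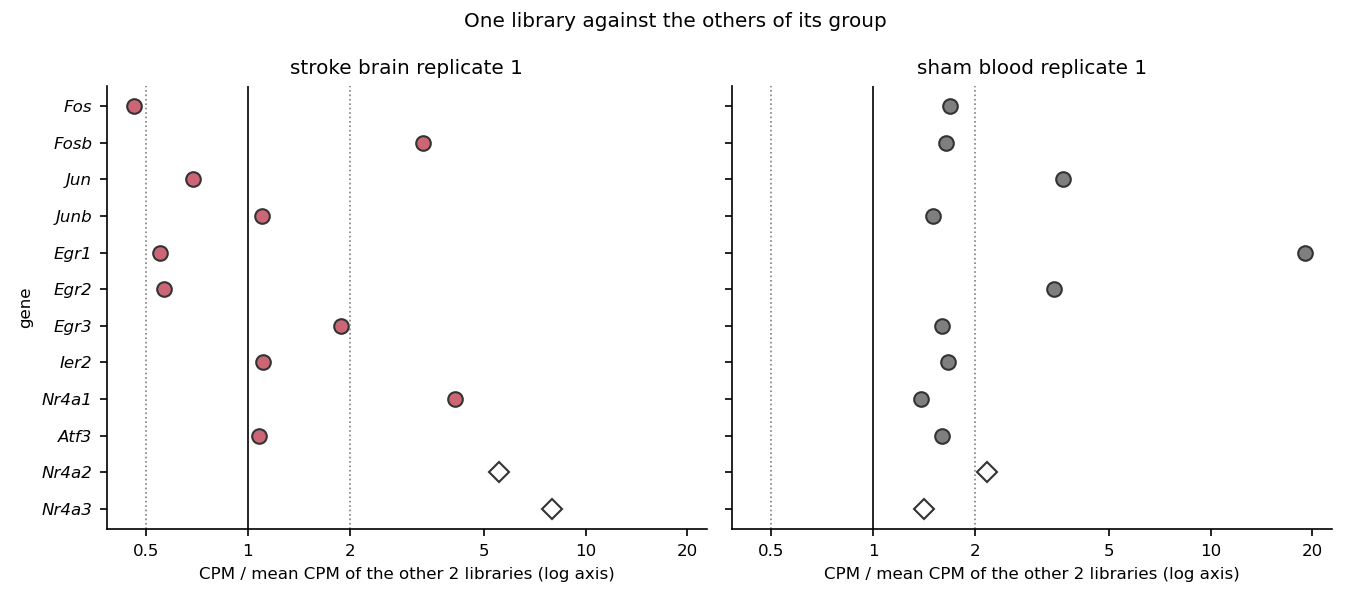
CPM of 1 library divided by the mean CPM of the other 2 libraries of its group (log axis), for stroke brain replicate 1 and sham blood replicate 1; circles are the 10 genes, open diamonds are Nr4a2 and Nr4a3, and dotted lines mark ratios of 0.5 and 2. In the brain the genes split to both sides of 1, from 0.461 for Fos to 4.12 for Nr4a1, whereas in sham blood all 10 ratios are above 1, up to 19.0 for Egr1.

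The other genes of these pathways were followed as fixed lists. Among the genes named from them, exons of Fosl1, Jdp2, Jund, Mafk, Batf2, Nab2, Crem, Csrnp1, Ppp1r15a and Hspa1a overlap another gene on the opposite strand, so their values are uncertain in the way given for Jun and Junb. Of the 13 other AP-1 family genes, 5 were upregulated DEGs in the brain against stroke blood (all genes 13.1%) and none was downregulated (all genes 7.86%), with a median log2 fold change of 0.84, and 3 were upregulated against sham blood (all genes 9.75%). Fosl1, which encodes FRA-1, was at 9.06, 7.25 and 5.69 CPM in the brain and at most 0.270 CPM in stroke blood, a log2 difference of 5.13 ± 0.50 (edgeR adjusted p = 0.00015). Jdp2, which encodes a repressor that dimerizes with JUN, was at 87.1, 60.9 and 51.8 CPM in the brain and between 2.17 and 3.40 CPM in stroke blood (4.51 ± 0.30, 2.28e-05). These genes were DEGs against sham blood too (4.64 and 3.66). Jund rose by 1.92 (0.00213) and Maff by 2.19 (0.013), a call that was lost for Maff without stroke blood replicate 2 (0.0525) or 3 (0.0551). The fifth gene was Mafk (1.27, 0.00761), whose log2 fold change was 0.93 without brain replicate 1. Against sham blood the third DEG was Maff (3.23, edgeR adjusted p = 0.0163), a call lost without sham replicate 2 (0.0652) or 3 (0.0583). Jund and Mafk were not DEGs against sham blood. Batf (0.16, 0.657) and Batf2 (0.066, 0.919) had the smallest values of the list.

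Among the EGR and NR4A relatives and corepressors, all 4 genes tested were upregulated against stroke blood (median 3.16, against 13.1% of all genes) and 3 against sham blood (against 9.75%; 2 without sham replicate 3). Egr4 was not tested, with 2 counts in 1 stroke blood library and 0 in the other 8 libraries. Nr4a2 rose by 5.74 ± 0.79 (edgeR adjusted p = 0.000825) against stroke blood, where it was at no more than 1.35 CPM, and by 4.44 (9.29e-05) without brain replicate 1. Nr4a3 rose by 4.47 ± 1.02 (0.0098), and its value was 2.78 without brain replicate 1 (0.0215), while the call was lost without stroke blood replicate 2 (0.0527) or 3 (0.0503). The corepressors of EGR proteins were higher as well, Nab1 by 1.85 ± 0.21 (0.000321) and Nab2 by 1.43 ± 0.32 (0.00901). Against sham blood Nab2 had a value of 1.20 (0.129), and of 1.93 (0.022) without sham replicate 1.

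Of the 13 factors and kinases upstream of these genes, among them Srf, Creb1 and genes of the JNK and p38 kinases, 1 was upregulated and 1 downregulated against stroke blood, with a median log2 fold change of 0.12, and 2 were upregulated and none downregulated against sham blood (2 downregulated without brain replicate 1). These counts are near the shares over all genes, 13.1% and 7.86% against stroke blood and 9.75% and 3.67% against sham blood. Crem, a CREB family gene with its own inducible repressor product, was at 115, 77.3 and 50.2 CPM in the brain and between 5.18 and 8.15 CPM in stroke blood (3.48 ± 0.33, edgeR adjusted p = 0.000111). It was higher than in sham blood by 2.70 (0.00548). Rps6ka3, a ribosomal S6 kinase gene, was lower in the brain by -1.39 ± 0.43 (0.037), and this call was lost with any of the libraries left out except brain replicate 1. Mapk14, which encodes p38α, had the smallest value (0.088, 0.734). Counts of RNA say nothing of the activity of these kinases.

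Other immediate early genes, which encode feedback regulators and other factors, followed the same direction in part. Of 18 genes, 10 were upregulated against stroke blood and 1 was downregulated (median 1.86), where the shares over all genes were 13.1% and 7.86%. The counts against sham blood were also 10 and 1 (all genes 9.75% and 3.67%), the first falling to 6 without sham replicate 2 and the second being 0 without sham replicate 2 or 3 or brain replicate 2 or 3 and 2 without brain replicate 1. The 4 highest were Ier3 (2.99 ± 0.42, edgeR adjusted p = 0.000895), Myc (2.93 ± 0.24, 5.33e-05), Csrnp1 (2.93 ± 0.36, 0.000465) and Ppp1r15a (2.77 ± 0.32, 0.000342), the last a feedback regulator of the integrated stress response. Klf2, a zinc finger gene of quiescent monocytes named here after its values were seen, was the downregulated gene (-1.44 ± 0.41, 0.025), and its call was lost without stroke blood replicate 1 (0.0618) or 3 (0.101) or brain replicate 2 (0.0648) or 3 (0.0913). Klf6 (0.15, 0.43) and Klf4 (0.20, 0.727) had the smallest values. Between stroke blood and sham blood none of the genes of these lists was a DEG. Among all 12664 genes tested there, 0.0079% (1 gene) were called higher in stroke blood, so this count does not set the lists apart.

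Of the 14 heat shock and signalling transcripts known to rise on dissociation, 6 were upregulated against stroke blood (median 1.06, against 13.1% of all genes) and 5 against sham blood (median 0.70, against 9.75%). The count against sham blood fell to 2 without sham replicate 2 and to 3 without any single brain library. Rgs1, a regulator of G protein signalling, was at 344, 164 and 137 CPM in the brain and between 0.756 and 1.16 CPM in stroke blood (7.68 ± 0.44, edgeR adjusted p = 1.05e-05). The chemokine genes Ccl4 (3.55 ± 0.53, 0.0013) and Ccl3 (3.12 ± 0.35, 0.000282) were higher, and so was Hspa1a (2.75 ± 0.34, 0.000475), which shares reads with its near-identical copy Hspa1b and is uncertain. The constitutive chaperone genes Hspa8 (0.055, 0.83) and Hsp90aa1 (0.14, 0.7) had the smallest values. The list thus held both genes that rose and genes without a detected change, and its part in the level of the 10 genes in the brain was not tested.

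**Figure D5:**
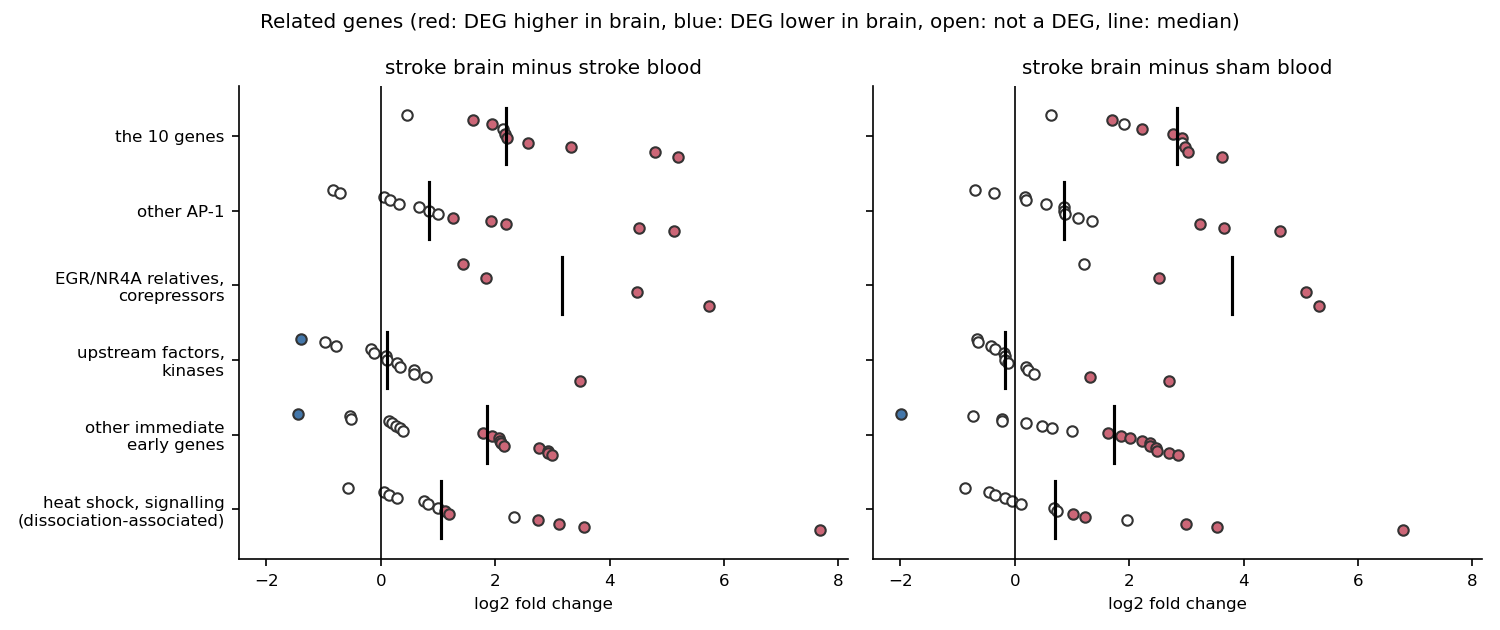
Log2 fold change of each tested gene (points) in the 10 genes and 5 related lists, for stroke brain minus stroke blood and stroke brain minus sham blood; red points are DEGs higher in the brain, blue points DEGs lower in the brain, open points no DEGs, and lines the median of a list. Against stroke blood the medians run from 0.12 for upstream factors and kinases to 3.16 for the EGR and NR4A relatives and corepressors, with 2.19 for the 10 genes.

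Genes other than the 10 were ranked by how like their pattern over the 9 libraries was to a median profile. This profile was taken over the 9 genes with a mean of at least 1 CPM. Likeness was the root mean square difference of centred log2 values. The 10 genes themselves lay between 0.296 (Junb) and 1.39 (Egr1) from this profile, so it does not stand for each of them. Among the 5 closest were Gm47283 (0.265), Nfkbid (0.268), Nfkbiz (0.279) and Cdkn1a (0.290). Of these, Gm47283 was at or below 1.30 CPM in all blood libraries, so its likeness rests on few counts there. Nfkbid, which encodes a nuclear inhibitor of NF-kappaB, was at 203, 152 and 149 CPM in the brain and between 13.7 and 29.8 CPM in blood. Nfkbiz, of the same protein family and already among the other immediate early genes above, was at 283, 159 and 151 CPM in the brain and at most 56.7 CPM in blood. Cdkn1a, which encodes the cell cycle inhibitor p21, was at 629, 406 and 348 CPM in the brain and at most 99.4 CPM in blood. Nfkbid, Nfkbiz and Cdkn1a were highest in brain replicate 1 among the brain libraries and in sham replicate 1 among the sham libraries. Of the 10 genes, 6 were also highest in brain replicate 1, whereas Fos, Jun, Egr1 and Egr2 were lowest there.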

How the data were processed

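RNA of sorted monocytes/macrophages was measured in 9 libraries, grouped by the tissue and surgery in their labels. The authors made libraries with SMART-Seq HT and Nextera XT kits, ran FastQC in Chipster on the paired-end reads, aligned these with HISAT2 (GRCm38) and used HTSeq to count reads per gene. The deposited files hold the raw counts, which are not normalized. Versions and strand setting are not given in the sources used here. Libraries were amplified by PCR without molecular identifiers, so floors cover counting error only. Replicates differed beyond sampling noise (chi-square over its degrees of freedom between 23.9 and 135.9), and each library was counted once.

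Symbols, exon lengths and positions were looked up in GENCODE M21, where 53706 of the 53801 identifiers were found and 52105 had unchanged coordinates. Comparisons used the quasi-likelihood test of edgeR 4.0.16 (R 4.3.3) after TMM normalization and the default filterByExpr step, with the libraries of the 2 groups compared. The authors used DESeq2; DESeq2 1.42.0 was an alternative here. The SE is the log2 fold change over the square root of F. The smallest two-sided p of an exact permutation test is 0.1 for 3 libraries against 3. Scripts were tested on simulated data. Tables and figures used Python 3.11.15, numpy 2.4.6, pandas 2.3.3 and matplotlib 3.10.9. CPM in the text is not TMM-scaled; the likeness profile used a pseudocount of 0.5 CPM.

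The 10 genes and all lists were chosen with earlier results of these data known. All 10 are named; of each other list, the text names up to 4 DEGs with the largest absolute log2 fold change against stroke blood and no overlap, and up to 2 genes with the smallest. Klf2 and Mafk were named after their values were seen. The alternatives were DESeq2, normalization by RLE, by upper quartile or by library size alone, no filter, a mean of at least 50 counts, an adjusted p below 0.01, DEGs by adjusted p alone, a fit of all 9 libraries, a block for the replicate number, and each library left out in turn. Leaving libraries out for the other lists and for the order per kilobase, and TMM-scaled CPM for the overlap of groups, were added after the data were seen. Results for some genes that these rules name are not reported here.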

Additional observations from a re-analysis of the deposited data

How the results depend on the processing

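With a replicate block, that is with the replicate number as a term, 8 of the 10 genes were DEGs between brain and stroke blood, 6 between brain and sham blood (Fos had an adjusted p of 0.0565) and 0 between the blood groups, and Jun between the blood groups had a log2 fold change of 0.34 in place of -0.033. Egr1 against sham blood was at 4.58 under the block (adjusted p = 0.0719). The sources used here name no pairing of the libraries by number. Deviations of same-numbered libraries from their group means correlated between -0.070 and 0.066 across genes. Whether mice that gave stroke blood also gave brain cells is not stated in these sources.

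Against stroke blood the count of DEGs was 8 of 10 in all alternatives but an adjusted p below 0.01 (7), and between 7 and 8 with a library left out, with a median log2 fold change between 1.95 and 2.45. Against sham blood it was 4 at an adjusted p below 0.01, between 6 and 8 in the others, and between 4 and 9 with a library left out, with a median between 2.21 and 3.08. The count was 4 without sham replicate 2 or sham replicate 3. Jun was a DEG against sham blood in the fit of all 9 libraries (adjusted p = 0.0258), without a filter (0.0206) and with library size only (0.0495), and Egr3 was no DEG in the fit of all 9 libraries (0.0697). Scaling by library size only moved the median of all genes against stroke blood from 0.062 to 0.22.

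Between stroke blood and sham blood no gene was a DEG in any alternative, and the median lay between -0.16 and 0.46 with a library left out. Values near 0 changed sign: Jun was at 0.037 with upper-quartile normalization and 0.0066 in the fit of all 9 libraries. With a library left out, Fos ranged from -0.16 to 0.40, Jun from -0.48 to 0.90, Junb from -0.11 to 0.28, Egr1 from -2.40 to 0.97 and Ier2 from -0.088 to 0.46. Depth limits Egr3, and Egr2 in blood, where counts were few.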
